A study of Mus musculus with 12 samples.

Results

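The interferon-gamma response genes described here are 7 GTPases of the GBP and IRG families (Gbp2, Gbp3, Gbp5, Gbp7, Irgm1, Igtp and Iigp1), the transcription factor Irf1 and the chemokines Cxcl9 and Cxcl10. They were chosen by symbol, and all 10 were found among the 22769 genes of the mRNA table that were not at 0 in every library. The tissue was the 4T1 tumour, grown from a mouse mammary carcinoma line in Balb/c mice and taken 35 days after inoculation. The stress group had been placed under restraint stress for 2 hours on each of 28 days in succession, and the control group was untreated; each group had 3 mRNA libraries. Both groups carried the same tumour line, and the labels do not say whether each library came from a separate mouse. The p-values therefore set a group difference only against the spread between these libraries, which may be technical. Values are the authors' normalized log2 values, so a difference of 1 is taken as a 2-fold change. Whether they are corrected for transcript length is not stated, so results are read between libraries and not between genes. Levels served only to filter or match genes and to form sums of marker genes within a library.

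Interferon-gamma is secreted mainly by activated T cells and NK cells. It binds a receptor made of Ifngr1 and Ifngr2, the kinases Jak1 and Jak2 pass the signal on, and it reaches the promoters of genes such as Irf1 through gamma-activated sequences (GAS). Irf1 in turn binds interferon-stimulated response elements (ISRE), which type I interferons also use. In mice the GTPases of the GBP and IRG families act against intracellular pathogens, and Cxcl9 and Cxcl10 attract cells that carry Cxcr3. In tumours this set of genes is widely read as a sign of an interferon-gamma response.

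The mean levels of these genes did not differ detectably between stressed and control tumours, while the 3 stress libraries differed widely among themselves. None of the 10 genes was called between stress and control at an adjusted p of 0.05 in either direction (limma with Benjamini-Hochberg adjustment), none reached an unadjusted p of 0.05, and none had groups that did not overlap. Over all 14098 genes tested, 0.0355% were called at that threshold (0.0213% higher and 0.0142% lower), 17.4% reached an unadjusted p of 0.05 and 24.3% had groups that did not overlap. The stress minus control differences ran from -0.32 (Cxcl9) to 0.17 (Gbp2), with a median of 0.01, against a median of 0.00 over all genes tested; 5 were above 0 and 5 below. In all 10 genes, however, the stress replicate 2 library was the highest of its group, stress replicate 3 was in the middle and stress replicate 1 was the lowest. The control libraries lay close together between these extremes, with Cxcl9 as the exception.

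**Figure D1:**
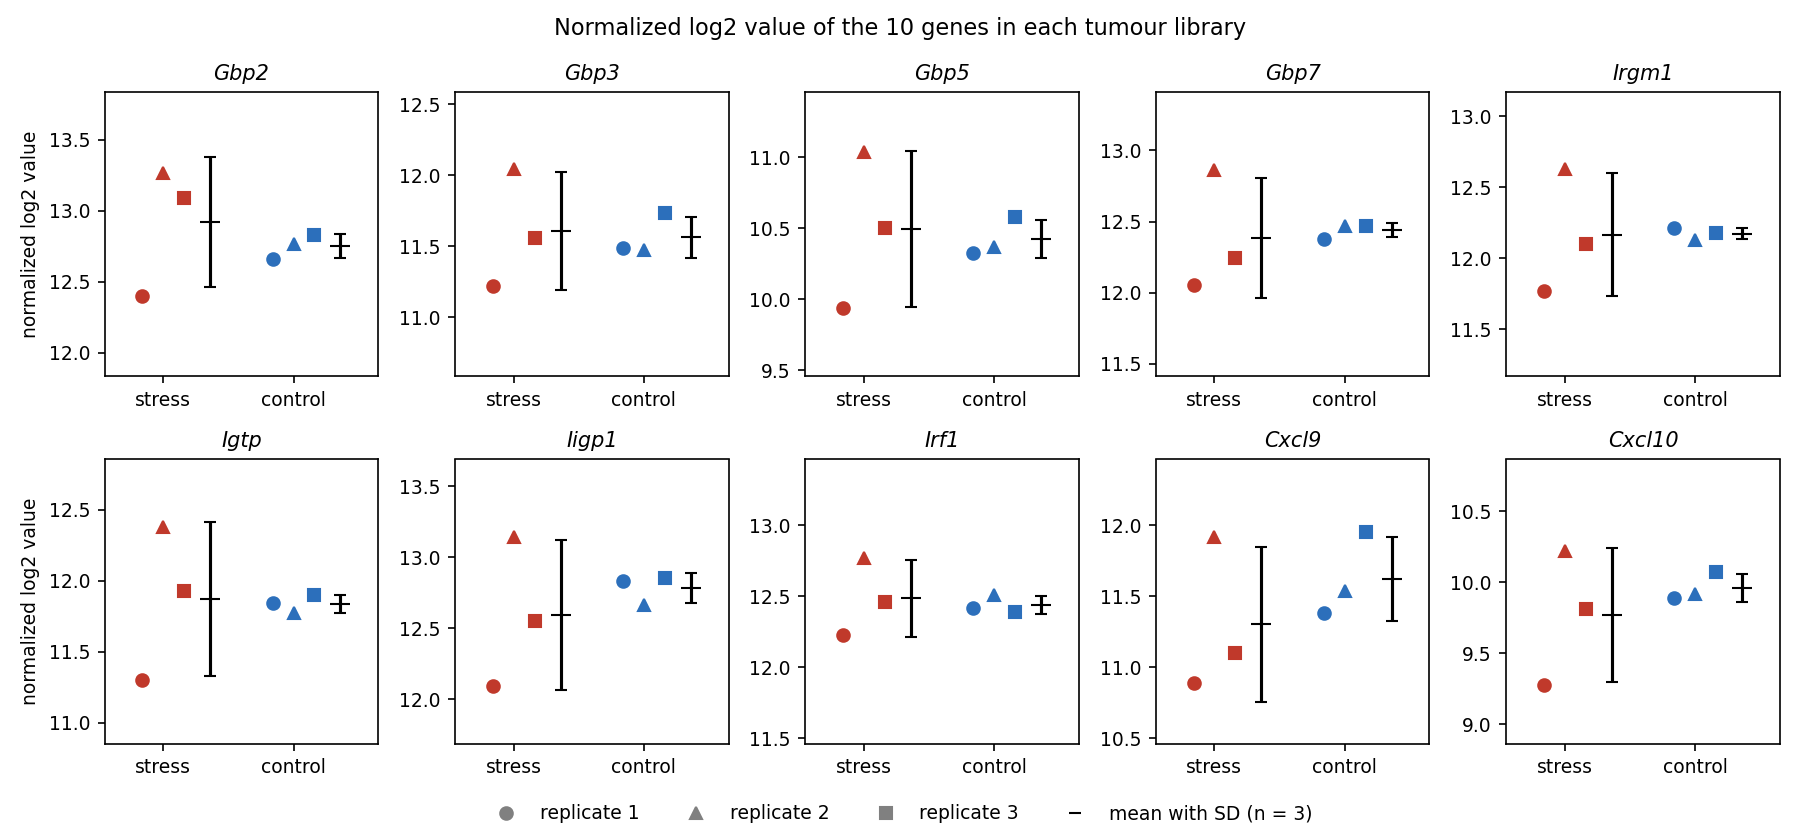
Normalized log2 value (vertical axis, each panel spanning the same number of log2 units) of each of the 10 genes in the 3 stress libraries (red, left) and the 3 control libraries (blue, right); marker shape gives the replicate number, and the bar beside each group is the mean with its SD (n = 3). In every panel stress replicate 1 lies below all control libraries, and in all but Cxcl9 stress replicate 2 lies above them.

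The guanylate-binding proteins (GBPs) are large GTPases that assemble on the membranes of pathogens and of the vacuoles that hold them. Gbp2, one of the members recruited to such vacuoles in mouse cells, lies on the plus strand of chromosome 3 (142620602 to 142638008, GRCm38, GENCODE M21). It had log2 values of 12.40, 13.27 and 13.09 in stress replicates 1 to 3, against 12.66, 12.77 and 12.83 in control replicates 1 to 3. Stress replicates 2 and 3 were above every control and replicate 1 was below every control, and the means of 12.92 ± 0.46 in stress and 12.75 ± 0.09 in control (SD, n = 3 each) differed by 0.17 ± 0.21 (SE; 95% interval -0.32 to 0.66; limma adjusted p = 0.708). This was the most positive difference of the 10 genes, and it was smaller than the spread between the stress libraries.

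Gbp3 (chromosome 3, 142560026 to 142573209), another GBP of the same gene cluster, had 11.22, 12.04 and 11.56 in stress replicates 1 to 3, against 11.49, 11.47 and 11.73 in control replicates 1 to 3. The middle stress library lay within the control range, and the difference was 0.04 ± 0.19 (SE; adjusted p = 0.931). Gbp5 (142493978 to 142522344), which promotes inflammasome assembly in mouse macrophages, had 9.94, 11.04 and 10.50 in stress and 10.33, 10.37 and 10.58 in control. It had the widest stress range of the 10, 1.10 log2 units against 0.25 in control, and stress replicate 2 stood 2.15-fold above stress replicate 1. The group means of Gbp5, 10.49 ± 0.55 in stress and 10.43 ± 0.14 in control (SD, n = 3 each), differed by 0.07 ± 0.25 (SE; adjusted p = 0.919). Gbp7 (142530342 to 142550149), linked in mouse cells to assembly of the NADPH oxidase on phagosomes, had 12.05, 12.86 and 12.24 in stress and 12.38, 12.47 and 12.47 in control. Its control libraries spanned 0.09 log2 units and its stress libraries 0.80, with a difference of the means of -0.06 ± 0.19 (SE; adjusted p = 0.905).

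The immunity-related GTPases of the IRG family divide into regulators, which include Irgm1 and Igtp, and effectors such as Iigp1 that load onto pathogen vacuoles and disrupt them. Irgm1 (chromosome 11, minus strand, 48861968 to 48871683) had 11.77, 12.63 and 12.10 in stress replicates 1 to 3, against 12.21, 12.13 and 12.18 in control replicates 1 to 3. The control libraries of Irgm1 were the tightest of the 10 genes, with a range of 0.08, and its stress range of 0.86 was 11.4 times as wide. Its means, 12.17 ± 0.44 in stress and 12.18 ± 0.04 in control (SD, n = 3 each), differed by -0.01 ± 0.20 (SE; adjusted p = 0.988). Igtp (chromosome 11, 58199556 to 58207591) had 11.30, 12.38 and 11.93 in stress and 11.84, 11.77 and 11.90 in control, so that a single stress library, replicate 1, lay below the controls and the other two lay above. The means of Igtp differed by 0.03 ± 0.24 (SE; adjusted p = 0.959), although stress replicate 2 was 2.11-fold above stress replicate 1. Iigp1 had 12.09, 13.14 and 12.55 in stress and 12.83, 12.66 and 12.85 in control. Here replicates 1 and 3 of the stress group were below all controls and replicate 2 above, with a difference of -0.19 ± 0.24 (SE; adjusted p = 0.722).

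Irf1 (chromosome 11, plus strand, 53770014 to 53778374), the transcription factor that relays the interferon-gamma signal to ISRE-bearing genes, had 12.23, 12.77 and 12.46 in stress replicates 1 to 3, against 12.42, 12.51 and 12.39 in control replicates 1 to 3. It varied least of the 10 genes within the stress group, with a range of 0.53 and a 1.45-fold step between stress replicates 1 and 2, and its control range was 0.12. The means of 12.49 ± 0.27 in stress and 12.44 ± 0.06 in control (SD, n = 3 each) differed by 0.04 ± 0.13 (SE; 95% interval -0.25 to 0.34; adjusted p = 0.887). This interval was the narrowest of the 10.

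The chemokine genes lie side by side on the minus strand of chromosome 5, Cxcl9 at 92321347 to 92328079 and Cxcl10 at 92346638 to 92348889. Cxcl9, whose expression depends closely on interferon-gamma, had 10.89, 11.92 and 11.10 in stress replicates 1 to 3, against 11.38, 11.54 and 11.95 in control replicates 1 to 3. It was the one gene of the 10 in which stress replicate 2 did not exceed every control, and its control libraries were the most spread, with a range of 0.56. The means of 11.30 ± 0.55 in stress and 11.62 ± 0.29 in control (SD, n = 3 each) differed by -0.32 ± 0.28 (SE; 0.801-fold; 95% interval -0.98 to 0.34; adjusted p = 0.584). Cxcl10, which type I interferon and inflammatory signals also induce, had 9.28, 10.22 and 9.81 in stress and 9.89, 9.92 and 10.07 in control. Replicates 1 and 3 of the stress group lay below all controls, and the difference of -0.19 ± 0.22 (SE; 0.876-fold; adjusted p = 0.677) did not pass the threshold. Both chemokines thus had lower means in stress, in neither case by more than the spread between libraries.

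**Figure D2:**
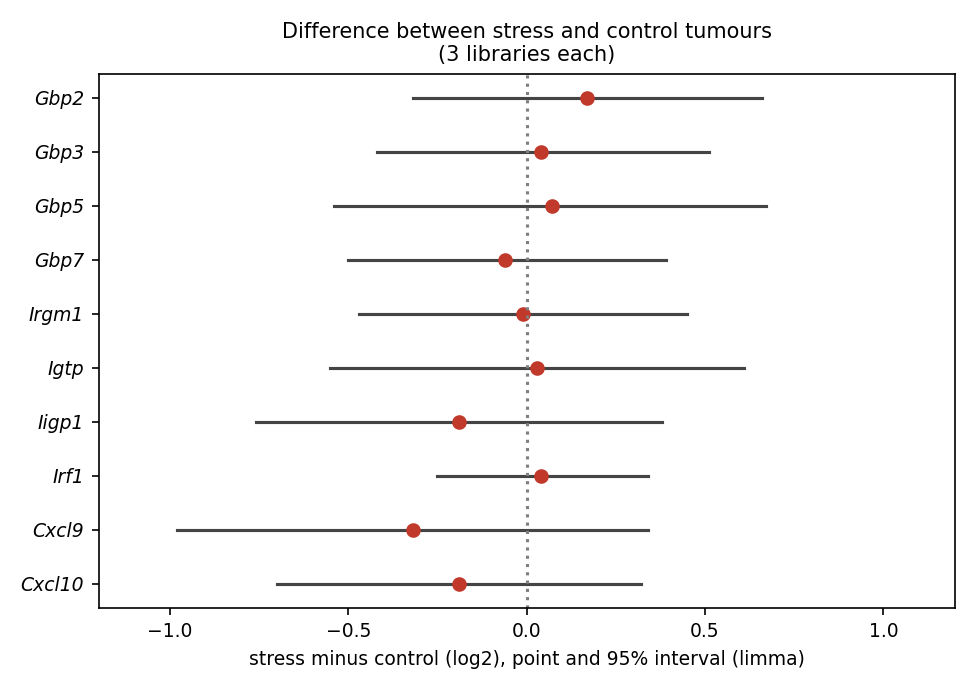
Difference of the group means, stress minus control, in log2 units (horizontal axis) for each of the 10 genes, with the point estimate and its 95% interval from limma. All 10 intervals include 0, and they reach from -0.98 for Cxcl9 to 0.67 for Gbp5.

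The intervals show what size of change these libraries can and cannot speak to. Across the 10 genes the lower bounds lay between -0.98 and -0.25 and the upper bounds between 0.32 and 0.67, with standard errors of 0.13 to 0.28. The missing call does not show that the groups were alike: for Cxcl9 the interval runs from 0.507-fold to 1.27-fold. Leaving out stress replicate 2 moved the median difference of the 10 genes to -0.23, and leaving out stress replicate 1 moved it to 0.18. No gene of the 10 was called in either case (lowest adjusted p = 0.177 and 0.209, limma), while 5 of the 10 reached an unadjusted p of 0.05 without stress replicate 2, against 16.9% of all genes in that fit, and 1 of the 10 without stress replicate 1, against 14.3%. These libraries were the highest and the lowest of the stress group in all 10 genes. Leaving them out therefore had to shift every difference in that direction, and the counts are no sign of a group difference.

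The spread within the groups was described after the values had been seen, and no test was made of it. All 10 genes had a larger SD in stress, 0.27 to 0.55, than in control, 0.04 to 0.29. The median range over 3 libraries was 0.91 log2 units in stress and 0.17 in control, against 0.15 and 0.14 over all genes tested. Wide stress ranges were not particular to these genes: the macrophage markers read below had medians of 0.69 in stress and 0.16 in control. A stress range of at least 0.53, the smallest of the 10, was found in 4.28% of all genes tested. For a control range of that width the share was 3.82%. In 9 of the 10 genes the stress libraries lay both above the highest and below the lowest control library, as did 15.9% of all genes tested and 13.9% of the 4237 genes with mean values within those of the 10. The order in which stress replicate 2 exceeded replicate 3 and replicate 3 exceeded replicate 1 held for 10 of the 10, against 13.7% of all genes tested and 12.6% of the genes at like levels. These genes are known to answer to the same signal and some share sequence, so the 10 genes are not 10 separate observations of the libraries.

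Relative to the control mean of each gene, stress replicate 2 was higher by 0.26 (Cxcl10) to 0.62 (Gbp5), with a median of 0.44. Stress replicate 1 differed by -0.73 (Cxcl9) to -0.21 (Irf1), with a median of -0.45. Stress replicate 3 ran from -0.53 (Cxcl9) to 0.34 (Gbp2); it lay within the control range for 3 genes (Gbp3, Gbp5 and Irf1), below it for 5 and above it for 2 (Gbp2 and Igtp). The near-zero mean differences thus came from libraries on both sides of the controls.

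**Figure D3:**
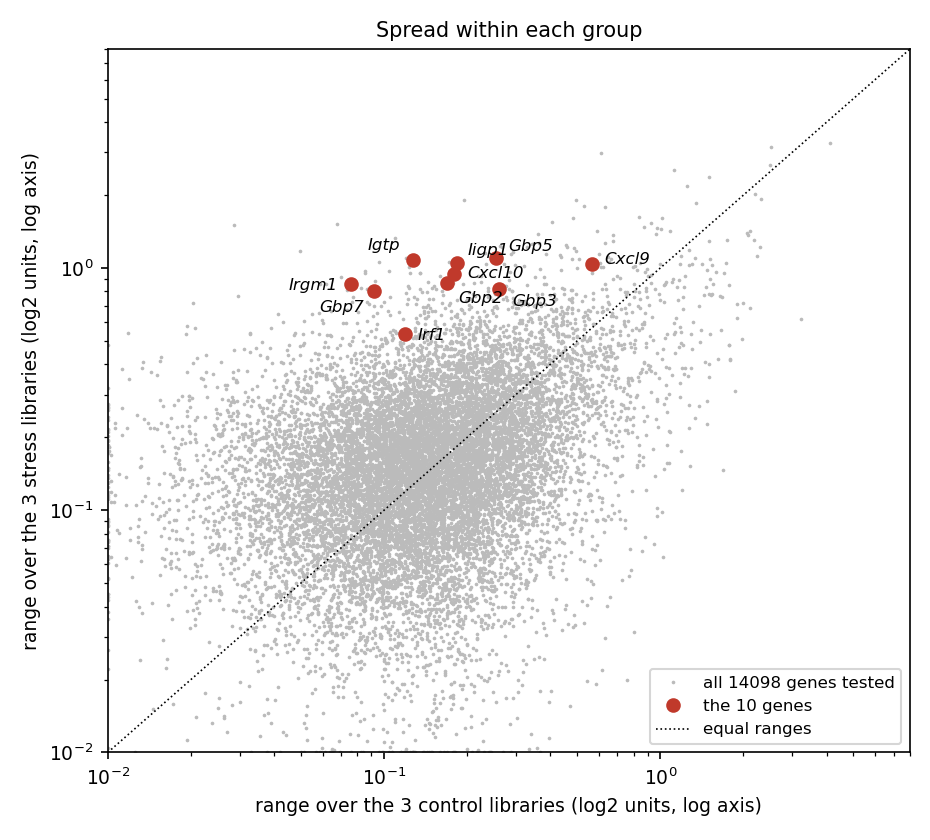
Range over the 3 stress libraries (vertical axis) against the range over the 3 control libraries (horizontal axis), both in log2 units on log axes, for the 14098 genes tested (grey) and the 10 genes (red); ranges under 0.01 are drawn at 0.01, and the dotted line marks equal ranges. All 10 genes lie above the line, with stress ranges of 0.53 to 1.10 and control ranges of 0.08 to 0.56.

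The sequence before the RefSeq start sites of these genes was searched for both kinds of interferon response sequence. The genes were chosen as interferon-gamma response genes, so the counts of matches say nothing about the spread between these libraries. Windows of 250 bases before each RefSeq start (GRCm38.p6) were searched on both strands for GAS, spelled TTCNNNGAA, and for an ISRE core, spelled GAAANNGAAA, or TTTCNNTTTC on the other strand. The spellings can overlap each other in sequence. GAS was found for 4 of the 9 genes with a window used here (Gbp5, Gbp7, Igtp and Irf1), against 8.13% of 27025 genes. The ISRE core was found for 7 of the 9 (Gbp2, Gbp3, Gbp5, Gbp7, Irgm1, Igtp and Cxcl10), against 3.46% of all genes, and both motifs for 3 of the 9 (Gbp5, Gbp7 and Igtp), against 0.459%. Cxcl9 had neither spelling in its window, and the Iigp1 sequence was not used here. RefSeq and GENCODE M21 place some starts differently, so not every window lies outside the GENCODE gene: the ISRE cores of Gbp2 and Irgm1 lie in an annotated exon of the gene itself, and the RefSeq start of Gbp5 lies 2956 bases inside the GENCODE gene, with the core outside its exons. A match is a description of the letters and does not show binding in these tumours.

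The 4 windows below are shown because they hold the GAS of Irf1, the ISRE of Cxcl10, and GAS together with ISRE in an IRG and a GBP gene; each reads 5′ to 3′ on the gene's own strand, and capitals mark the motif matches. They are chr11:53769764-53770013 (plus strand) for Irf1, chr5:92348890-92349139 (minus strand) for Cxcl10, chr11:58199306-58199555 (plus strand) for Igtp and chr3:142530086-142530335 (plus strand) for Gbp7, and each ends 1 base before the RefSeq start.
Irf1: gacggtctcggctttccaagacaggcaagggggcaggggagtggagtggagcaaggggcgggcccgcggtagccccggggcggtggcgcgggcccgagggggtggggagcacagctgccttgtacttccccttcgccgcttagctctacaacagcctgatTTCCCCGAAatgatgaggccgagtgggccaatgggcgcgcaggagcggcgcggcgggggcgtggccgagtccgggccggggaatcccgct
Cxcl10: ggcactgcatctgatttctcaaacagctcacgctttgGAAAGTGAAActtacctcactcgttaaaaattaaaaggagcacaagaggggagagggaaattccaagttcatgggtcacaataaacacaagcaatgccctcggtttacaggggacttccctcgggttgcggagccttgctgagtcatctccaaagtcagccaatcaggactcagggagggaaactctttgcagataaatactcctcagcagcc
Igtp: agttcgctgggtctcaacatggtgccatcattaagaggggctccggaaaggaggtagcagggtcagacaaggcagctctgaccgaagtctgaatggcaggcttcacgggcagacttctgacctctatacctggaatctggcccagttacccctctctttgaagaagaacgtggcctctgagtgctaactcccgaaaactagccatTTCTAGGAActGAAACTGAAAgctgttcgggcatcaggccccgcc
Gbp7: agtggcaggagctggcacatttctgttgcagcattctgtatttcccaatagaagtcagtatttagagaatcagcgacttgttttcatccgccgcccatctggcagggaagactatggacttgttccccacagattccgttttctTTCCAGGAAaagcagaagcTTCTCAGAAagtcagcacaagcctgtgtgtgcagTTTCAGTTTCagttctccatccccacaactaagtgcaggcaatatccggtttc
In Irf1 the GAS starts 90 bases before the start site and no ISRE core is present. In Cxcl10 the ISRE core starts 213 bases before the start site. In Igtp a GAS and an ISRE core stand next to each other, starting 45 and 34 bases before it. In Gbp7 there are GAS matches starting 106 and 87 bases before the start site and an ISRE core starting 53 bases before it.

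The ISRE cores of the chromosome 3 cluster are shown with 30 bases each, to compare neighbouring genes, with that of Irgm1 from chromosome 11. The stretches are chr3:142620594-142620623 (plus strand), chr3:142559992-142560021 (plus strand), chr3:142496759-142496788 (plus strand), chr3:142530273-142530302 (plus strand) and chr11:48871428-48871457 (minus strand), with the matches in capitals.
Gbp2: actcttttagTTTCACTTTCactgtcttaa
Gbp3: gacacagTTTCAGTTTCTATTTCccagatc
Gbp5: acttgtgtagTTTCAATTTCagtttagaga
Gbp7: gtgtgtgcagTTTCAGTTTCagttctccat
Irgm1: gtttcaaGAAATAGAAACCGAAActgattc
The 4 GBP genes carry the core as TTTCNNTTTC on their own strand, and Irgm1 carries it as GAAANNGAAA. Gbp3 and Irgm1 each hold a pair of overlapping cores. The first core starts 59 bases before the RefSeq start in Gbp2, 45 in Gbp3, 165 in Gbp5, 53 in Gbp7 and 30 in Irgm1.

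The ligand gene and the receptor genes varied less between the stress libraries than the 10 genes did, and neither receptor gene held their order. Ifng, the ligand gene, had 4.54, 4.72 and 4.56 in stress replicates 1 to 3, against 4.67, 4.64 and 4.64 in control replicates 1 to 3 (difference -0.04 ± 0.06, SE; adjusted p = 0.721). Ifng had the order of the 10 genes within the stress group, as did 13.7% of all genes tested, but replicates 1 and 3 were nearly equal. Its stress libraries lay above and below all controls, as did those of 15.9% of all genes tested. The stress range of Ifng was 0.18 against 0.03 in control. At this level the deposited values are compressed: genes with means of 4 to 5 had a median range of 0.179 across libraries, those with means of 9 to 10 one of 0.262. The range of Ifng was thus ordinary for its level, and differences in Ifng may be larger than these values show. A part of Ifng in the spread of the 10 genes was not tested. The receptor genes differed by 0.02 ± 0.06 for Ifngr1 (10.20 ± 0.07 in stress, 10.18 ± 0.07 in control; adjusted p = 0.924) and by -0.03 ± 0.07 for Ifngr2 (10.42 ± 0.11 in stress, 10.45 ± 0.05 in control; SD, n = 3 each; adjusted p = 0.856).

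The smallest p-values among the 9 ligand, receptor and signalling genes of the list belonged to Jak2, a kinase bound to the receptor and to others (12.49 ± 0.11 in stress, 12.16 ± 0.08 in control, SD, n = 3 each; difference 0.33 ± 0.07; adjusted p = 0.120), and Pias1, an inhibitor of cytokine signalling (difference 0.15 ± 0.05; adjusted p = 0.221). None of the 9 was called; 2 of them, Jak2 and Pias1, reached an unadjusted p of 0.05 and had groups that did not overlap, shares near those of all genes tested (17.4% and 24.3%). The stress libraries lay both above and below all controls in 4 of the 9, against 15.9% of all genes tested, and the order of the 10 genes held in 2 of the 9, against 13.7%. The median difference of the 9 was -0.03.

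The other GBP and IRG genes showed the same library pattern as the 7 GTPases described above. Of 14 such genes 13 had mean values of at least 4 and were tested, with 7 above 0, 6 below, none called, none at an unadjusted p of 0.05 and a median difference of 0.01. In 13 of the 13 the stress libraries lay both above and below all controls, against 15.9% of all genes tested. The order of stress replicate 2 above 3 above 1 held in 11 of the 13, against 13.7%. The exceptions were Gbp8 and Tgtp2, whose lowest library was stress replicate 3. Gbp2b, which shares transcript sequence with Gbp2, had 12.45, 13.50 and 13.16 in stress and 12.72, 12.90 and 12.86 in control (difference 0.21 ± 0.25, SE; adjusted p = 0.693). Ifi47, a further IRG GTPase, had 10.27, 10.87 and 10.59 in stress and 10.72, 10.57 and 10.78 in control (difference -0.11 ± 0.14, SE; adjusted p = 0.715).

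Reads of these families can be hard to divide, because their members are similar. Of the 31-base words in the GENCODE M21 transcripts of each gene, 0.574% (Cxcl9) to 15.9% (Igtp) also occurred in transcripts of another gene. Igtp shared its 15.9% with Irgm2, whose annotated transcripts begin within the Igtp gene, so the values of this pair are uncertain. For Gbp7 the share was 14.7%, most of it with Gm43802, which lies within the Gbp7 gene, and for Gbp2 it was 4.85%, most of it with Gbp2b. For Cxcl10 it was 4.47%, with Art3, which overlaps it.

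**Figure D4:**
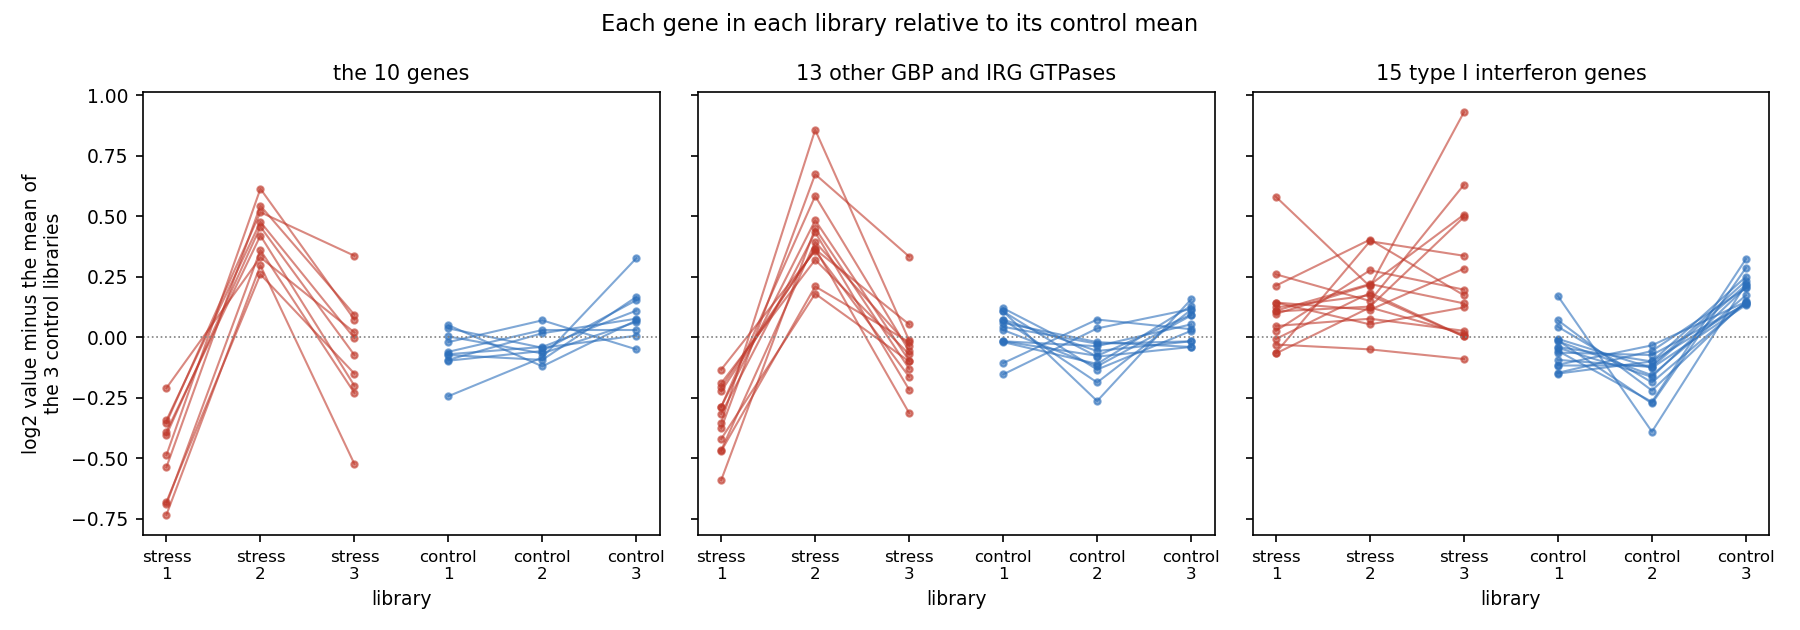
Log2 value minus the mean of the 3 control libraries (vertical axis) in each of the 6 libraries (horizontal axis, stress in red, control in blue), 1 line per gene and group, for the 10 genes, 13 other GBP and IRG GTPases and 15 type I interferon stimulated genes; lines link the values of a gene and imply no order of the replicates. The first 2 panels share a low stress replicate 1 and a high stress replicate 2, which the third panel does not show.

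The type I interferon genes, which share the ISRE with many interferon-gamma targets, had another pattern. Of 15 tested, 14 had a higher mean in stress and 1 a lower one, with a median difference of 0.17. Over all 14098 genes tested 7136 were above 0. The mean over the 15 genes was 9.48, 9.54 and 9.61 in stress replicates 1 to 3. In control replicates 1 to 3 it was 9.32, 9.21 and 9.56, so control replicate 3 lay above stress replicates 1 and 2. The median range was 0.19 in stress and 0.35 in control. The stress range was the larger in 4 of the 15, against 53.2% of all genes tested. Like the 10 genes, these 15 are not separate observations of the libraries. None of the 15 was called (limma), and 2 reached an unadjusted p of 0.05, against 17.4% of all genes tested. In 0 of the 15 did the stress libraries lie on both sides of the controls, against 15.9% of all genes tested. The order seen in the 10 genes held in 5 of the 15, against 13.7%. The smallest p-values belonged to Rsad2, the antiviral enzyme viperin, with 9.02, 8.65 and 9.37 in stress and 8.51, 8.22 and 8.59 in control (difference 0.57 ± 0.18, SE; adjusted p = 0.200), and Usp18, which removes ISG15 from proteins (difference 0.26 ± 0.10, SE; adjusted p = 0.255). The difference between both sets of genes was not tested.

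Among 14 other genes that interferon-gamma induces, 9 were above 0 and 5 below, none was called, and the median difference was 0.04. An unadjusted p of 0.05 (limma) was reached by 2 of the 14, against 17.4% of all genes tested. The order of the stress libraries held for 11 of the 14, against 13.7% of all genes tested. In 6 of the 14 the stress libraries lay on both sides of the controls, against 15.9%. The 2 with the smallest p-values were Nos2 and Cd274, both also induced by signals other than interferon-gamma. Nos2, the inducible nitric oxide synthase, had 11.00, 10.85 and 12.06 in stress and 10.03, 10.51 and 10.51 in control (difference 0.95 ± 0.32, SE; adjusted p = 0.213), with its highest value in stress replicate 3 in place of replicate 2. Cd274, which encodes the checkpoint ligand PD-L1, had 10.59, 11.20 and 11.07 in stress and 10.27, 10.60 and 10.55 in control (difference 0.48 ± 0.16, SE; adjusted p = 0.215). Cd274 held the order of the 10 genes, but its stress values were shifted upwards, so that 2 of the 3 lay above all controls and the lowest lay within the control range.

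On the receiving side, the chemokine receptor gene Cxcr3, carried by activated T cells and NK cells, had 6.34, 6.35 and 6.41 in stress replicates 1 to 3, against 6.57, 6.68 and 6.77 in control replicates 1 to 3. All stress libraries lay below all controls, which was so in one direction or the other for 24.3% of all genes tested, and the difference of -0.31 ± 0.07 (SE; 0.808-fold; 95% interval -0.47 to -0.14) did not pass the threshold over all genes (adjusted p = 0.128, limma). Its stress libraries spanned 0.07 log2 units and did not show the spread of its ligands. Cxcl11, the remaining Cxcr3 ligand, had 7.65, 8.28 and 8.13 in stress and 8.05, 8.08 and 8.58 in control (difference -0.22 ± 0.20, SE; adjusted p = 0.598). With Dpp4, a protease that trims these chemokines, this list of 3 had no call and 1 gene, Cxcr3, at an unadjusted p of 0.05. The share over all genes tested was 17.4%. The median difference of the list was -0.22.

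Of the 8 other interferon regulatory factors none was called, 5 were above 0 and 3 below, with a median difference of 0.09. Against 17.4% of all genes tested, 1 of the 8 reached an unadjusted p of 0.05 (limma). That was Irf2, an antagonist of Irf1 at shared sites, with 10.31, 10.48 and 10.38 in stress and 10.18, 10.26 and 10.13 in control (difference 0.20 ± 0.06, SE; adjusted p = 0.189). The next was Irf3, which induces type I interferon (difference 0.10 ± 0.05, SE; adjusted p = 0.375). Both had all stress libraries above all controls; such groups without overlap, 2 of the 8 genes, were about as frequent as over all genes tested (24.3%).

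The 5 genes outside the set whose library values were most like the mean profile of the 10 were found by Pearson's r over the 6 libraries, among 1917 genes with a range of at least 0.5. They were Gm12250 (r = 0.9923), Gbp4 (0.9918), Gm43302 (0.9907), Irgm2 (0.9716) and Klrb1b (0.9622), with Spearman's rho of 0.83 to 0.94. These values are descriptions of 6 libraries, and the genes were ranked by them. RefSeq lists Gm12250 as a protein-coding gene with the synonym Irgb10, an IRG GTPase, whereas GENCODE M21 annotates it as a processed pseudogene; Klrb1b encodes a lectin-like receptor of NK cells. Gm12250 had 9.24, 10.16 and 9.63 in stress replicates 1 to 3, against 9.70, 9.67 and 9.90 in control replicates 1 to 3.

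Marker genes were read beside these results, since in bulk tumour fewer cells of a type and less RNA per cell cannot be told apart. The epithelial markers of the tumour cells were present in all libraries, with Krt8 at 13.75 to 13.88 in stress and 13.75 to 13.89 in control. Sums over the 8 markers, formed as for the T and NK cells below, were 15.42, 15.28 and 15.44 in stress replicates 1 to 3. In control replicates 1 to 3 they were 15.44, 15.42 and 15.29. Of the stress libraries, replicate 2 had the lowest sum, and in it the 10 genes were highest. Of the 8 markers 3 were above 0, 5 below and none called. Krt7 had all stress libraries below all controls (difference -0.36), and 24.3% of all genes tested had groups that did not overlap. The 17 T and NK cell markers had summed levels (log2 of the sum of the linear values) of 10.86 to 11.44 in stress and 10.55 to 11.21 in control, with 5 of 16 tested above 0 and none called. The highest stress library of this sum was replicate 1, in which the 10 genes were lowest. Genes with high values weigh most in such sums, as Gzmb does here (10.15, 9.12 and 9.34 in stress replicates 1 to 3). The markers were not uniform: Klrk1, Ncr1, Klrb1c and Cd4 were highest in stress replicate 2, as the 10 genes were, and the others in stress replicate 1. The 10 macrophage markers had 15.20, 15.49 and 14.74 in stress replicates 1 to 3, against 15.16, 15.20 and 15.17 in control replicates 1 to 3. Stress replicate 2 was highest as for the 10 genes, while replicate 3 was lowest. Of these markers 6 of 10 had stress libraries on both sides of the controls, and 0 of 10 held the order of the 10 genes. The 7 dendritic cell markers ran from 8.90 to 8.99 in stress and from 8.95 to 9.25 in control, and 0 of 7 were above 0. The 8 neutrophil markers ran from 11.16 to 11.87 in stress and from 10.68 to 10.84 in control, with the defining marker Ly6g near 0 in all libraries (-0.10 to -0.05). Skeletal muscle markers (11.49 to 12.92 in stress, 12.51 to 14.04 in control) and fibroblast markers (16.12 to 16.59 in stress, 16.45 to 17.55 in control) were lower on average in stress, and endothelial markers ran from 12.79 to 12.97 in stress and from 13.02 to 13.20 in control. None of these lists had a called gene (limma). An unadjusted p of 0.05 was reached by 5 of 8 endothelial, 5 of 9 fibroblast, 4 of 7 neutrophil and 4 of 12 muscle markers, by 1 of 10 macrophage, 1 of 7 dendritic cell and 1 of 8 epithelial markers and by 0 of 16 T and NK cell markers, against 17.4% of all genes tested. The part of these cell types in the spread of the 10 genes was not tested.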

How the data were processed

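The mRNA table covers 6 libraries and 35453 rows. Its name calls it raw counts, but what the authors deposited are normalized log2 values: they are fractional, run from -1.97 to 17.85 and are 0 in all libraries or in none. No source names the logarithm's base, and 2 was assumed. Reads were processed with bcl2fastq and kallisto 0.46.1 on mm10, per the submitters' processing notes; how these values were made from kallisto's output is not stated, and the depth is unknown. The small spread at low values points to a shrinking transform, which understates changes of weakly expressed genes. The libraries have like medians (8.91 to 8.92).

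Rows at 0 in all libraries (12658) and 26 rows with a date in place of a symbol were left out. Genes with a mean of at least 4 (14098) were fitted with limma 3.58.1 in R 4.3.3 (variance trend, robust estimation), stress against control without covariates, two-sided, with Benjamini-Hochberg adjustment over all of them; the fit was tested on simulated data. With 3 libraries against 3, an exact permutation test cannot go below p = 0.1. The 10 genes and all lists were chosen with earlier results of these data known. Named outside the 10 were Ifng, its receptors and Cxcr3, the genes of each list past the threshold or else the 2 with the smallest p, and the 5 most like the mean profile. Gbp8 and Tgtp2, Dpp4, Krt8, Krt7, Ly6g, Gzmb, Klrk1, Ncr1, Klrb1c and Cd4 were named after their values were seen. The labels do not say whether replicate numbers pair the libraries, and the main fit did not pair them. The miRNA table was not used here, and 1 signalling gene of the lists is not reported here. Alternatives were other filters, scalings and variance settings, a muscle covariate, a replicate block and leaving out each library.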

Additional observations from a re-analysis of the deposited data

How the results depend on the processing

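None of the 10 genes was called under any of the 13 alternatives (limma; 130 fits, lowest adjusted p = 0.177 for Gbp7 without stress replicate 2), and 0 of the 10 reached an unadjusted p of 0.05 except without stress replicate 1 (1 gene) or stress replicate 2 (5 genes). Their median difference was 0.01 and lay between -0.04 and 0.07 under the other filters, scalings, variance settings and covariates, and between -0.23 and 0.18 when single libraries were left out. The order of the stress libraries held for 10 of 10 genes after quantile normalization and after median centring, alternatives chosen after seeing the data, and 9 of 10 had stress libraries on both sides of the controls in both.

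Over all genes 3 were higher and 2 lower. At a mean value of at least 6 there were 7 lower, after quantile normalization 5 lower, and without trend and robust estimation 1 higher and 1 lower. With a muscle covariate 0 were higher and 0 lower (1216 at an unadjusted p of 0.05). With the replicate block 0 were higher and 0 lower as well (2303 at an unadjusted p of 0.05), and the median difference of the 10 genes was 0.01. The same-numbered libraries had correlations of their deviations of -0.08, 0.08 and -0.02. Stress replicates 1 and 3 correlated better with another number than with their own, and stress replicate 2 best with its own. Such weak correlations cannot settle whether the libraries were paired. Leaving out single libraries gave 0 to 4 higher and 0 to 2 lower genes. The cause of these shifts was not tested.

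Signs of uncalled differences turned in places. After quantile normalization Igtp stood at -0.02 and Ifngr1 at -0.01, and with the muscle covariate Gbp7 stood at 0.09 and Irgm1 at 0.05. Without single libraries the differences ran from -0.01 to 0.43 for Gbp2, -0.17 to 0.24 for Gbp3, -0.21 to 0.34 for Gbp5, -0.29 to 0.11 for Gbp7, -0.24 to 0.19 for Irgm1, -0.22 to 0.32 for Igtp, -0.46 to 0.07 for Iigp1, -0.10 to 0.17 for Irf1 and -0.42 to 0.05 for Cxcl10. They ran from -0.02 to 0.05 for Ifngr1, -0.09 to 0.01 for Ifngr2, -0.02 to 0.50 for Gbp2b and -0.26 to 0.04 for Ifi47. For each of the 10 genes the lowest value came without stress replicate 2 and the highest without stress replicate 1. Cxcl9 (-0.63 to -0.11) stayed below 0. The depth behind the values is unknown, so no counting error can be given.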
